A study of Mus musculus with 48 samples.

Results

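Editing was followed in the transcripts of 3 neurotransmitter receptor genes, Grik2, Gabra3 and Grm4, by taking every position that the deposited tables list under these genes, whether it changes an amino acid, is silent or lies in an intron. These came to 130 of the 48715 positions listed in the series, 81 in Grik2, 21 in Gabra3 and 28 in Grm4. Of these, 60 were covered by more than 100 reads in at least 1 library (39, 12 and 9 respectively), among 7339 such positions in all. The measurements came from mmPCR-seq, in which stretches of cDNA holding known editing sites are amplified with pooled primers and sequenced. Libraries were made from brain, bone marrow (BM), heart, kidney, liver, small intestine, spleen and thymus of 12-week-old male C57BL/6 mice, with 3 independent biological replicates for each genotype in each tissue, 48 in all. The genotypes were Adar1+/+ Ifih1-/- (here WT) and Adar1E861A/E861A Ifih1-/- (here E861A), the latter with a germline point mutation that leaves ADAR1 protein unable to deaminate adenosine. All animals, the WT group included, lacked MDA5, the cytosolic RNA sensor encoded by Ifih1, so no animal with intact MDA5 was part of any comparison. Tissues were taken whole, so each value is an average over all cell types of an organ.

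A-to-I editing is the conversion of adenosine to inosine in double-stranded RNA, carried out in mammals by ADAR1 and by ADAR2, the product of Adarb1. Inosine is read as guanosine by ribosomes and by reverse transcriptase, so a site in a codon can change the encoded amino acid, and the editing level is the percentage of reads with G at a genomic A. Grik2 encodes GluK2, a subunit of kainate receptors, which are glutamate-gated cation channels. Its Q/R site lies in the loop that lines the pore, where arginine lowers the permeability to calcium, and its Y/C and I/V sites lie in the first membrane-spanning segment. Gabra3 encodes the α3 subunit of the GABA-A receptor, an inhibitory chloride channel, and its I/M site lies in the third membrane-spanning segment. Grm4 encodes mGlu4, a G protein-coupled glutamate receptor of presynaptic terminals.

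The sequences around the sites with the highest levels, with the listed Grm4 Q/R position for comparison, are given below as the RNA-sense strand in mm9 (NCBIM37). Each holds 29 bases read 5′ to 3′ from the minus strand, with the edited adenosine in capitals at the centre. Grik2 spans chr10:48819266-49508572, Gabra3 chrX:69678020-69902187 and Grm4 chr17:27559332-27650286. The Q/R site of Grik2, in exon 12, turns the glutamine codon cag into cgg (Q621R), at chr10:48964122-48964150.
Grik2 Q/R: tggagctctcatgcAgcaaggtatacgat
The Y/C site, in exon 11, turns tac into tgc (Y571C), at chr10:48992568-48992596.
Grik2 Y/C: tattctgctggcttActtgggtgtcagtt
The I/V site, 13 bases upstream of the Y/C site in the same exon, turns att into gtt (I567V), at chr10:48992581-48992609.
Grik2 I/V: atatctggatgtatAttctgctggcttac
The most edited position of intron 12 lies 1786 bases downstream of the Q/R site and is called intron +1786 here, at chr10:48962336-48962364.
Grik2 intron +1786: tggtggatacatgaAagaggaacccatcc
The I/M site of Gabra3, in exon 9, turns ata into atg (I383M in the transcript with 533 codons, codon 342 of that with 492), at chrX:69690617-69690645.
Gabra3 I/M: atggactggttcatAgccgtctgttatgc
The Q/R position of Grm4, in exon 2, turns cag into cgg (Q124R), at chr17:27639740.
Grm4 Q/R: cctgacctttgtgcAggcgctcatcgaga
The Q/R site of Grik2 lies 5 bases before the end of its exon. The intron that follows is 3528 bases long, and all 17 covered intronic positions of Grik2 lie in it, between 48962188 and 48962358. Of 343 windows of 100 bases along this intron, 5 overlapping windows that begin between 48962203 and 48962243, all among those positions, had lower predicted pairing energies with the 61 bases around the Q/R site than any other window. The lowest was -48.9 kcal/mol, in a duplex of 52 base pairs whose intronic strand runs from 48962220 to 48962311. The lowest window elsewhere reached -45.8 kcal/mol. In this predicted duplex the edited adenosine of the Q/R site was unpaired, and intron +1786, at 48962350, lay outside the intronic strand. A prediction from sequence alone describes what the letters can pair with and no structure was measured.

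Which libraries read which gene differed widely. Every covered Grik2 position, exonic and intronic, was read in all 6 brain libraries. Outside the brain the intronic positions of Grik2 were read in most libraries of heart, kidney, small intestine, spleen and thymus, and in 3 of BM, whereas its exonic sites passed 100 reads in few libraries. Gabra3 was read in all 6 brain and all 6 liver libraries, in 3 WT and 2 E861A kidney libraries, and in 2 heart, 3 small intestine and 2 spleen libraries. Grm4 was read in 2 libraries of each genotype in brain and never in kidney. Coverage after PCR is not expression, and in whole tissue fewer cells of a type cannot be told apart from less RNA per cell. The 8 neuronal transcripts used to check the tissue labels were all read in every brain library, with 5.11% to 8.86% of the library's coverage, against 0.132% to 2.13% in the libraries of other tissues. The other libraries had reads over 100 at 1 to 8 of these transcripts, 8 in a BM library, so reading all of them was not particular to brain. Summed over all positions, coverage ranged from 1861831 to 11394093 per library.

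The WT brain libraries spread more widely than the E861A ones, also outside these 3 genes. Over 631 edited sites read in all 6 brain libraries, the SD of the level was larger in WT at 435 sites. Among the 21 of them with a mean level of 50% to 95%, it was larger in WT at 18, with a median SD of 14.8 against 5.25 percentage points. At sites where at least 4 of the other libraries had 10% to 90% editing, a level of 0% was listed at 8 of 108 sites in WT replicate 1, at 7 of 111 in WT replicate 2 and at 1 of 99 in WT replicate 3. The E861A libraries had 1, 0 and 0 such sites. What sets WT replicates 1 and 2 apart was not tested, and their values are shown separately below.

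In brain, the exonic Q/R, Y/C and I/V sites of Grik2 were edited in most reads of every library in both genotypes. The Q/R site was edited in 56.1%, 77.2% and 77.8% of reads in WT and in 83.3%, 87.2% and 77.3% in E861A, from 2517 to 4497 reads per library. WT replicate 1 was the lowest of the 6, and the lowest E861A value lay just below the highest WT value, so the genotypes overlapped. The means were 70.4% ± 12.3 (SD, n = 3) in WT and 82.6% ± 4.99 in E861A. The Y/C site stood at 58.7%, 88.5% and 86.5% in WT and at 95.3%, 86.8% and 81.0% in E861A. Again WT replicate 1 was lowest and the other 2 WT libraries lay within the E861A range. The I/V site stood at 58.6%, 89.3% and 81.9% in WT and at 83.4%, 71.9% and 77.1% in E861A. Here the E861A libraries all lay inside the WT range, and the means were close, 76.6% ± 16.0 and 77.5% ± 5.77. A further recoding position, M/V, 4 bases upstream of the Q/R site in the same exon (codon 620), was edited at a low level throughout. It reached 1.92%, 3.37% and 5.81% in WT and 6.27%, 3.67% and 3.77% in E861A.

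The intronic stretch of Grik2 was edited in brain mainly at intron +1786. This site stood at 0%, 38.0% and 17.8% in WT and at 35.8%, 25.9% and 22.2% in E861A. WT replicate 1 had no edited read of 2268, which allows a level of up to 0.132%, while WT replicate 2 had the highest level of the 6. At a site 7 bases further on, intron +1793, the order was different. There WT replicate 1 was highest with 32.3% (629 of 1947 reads), the other WT libraries had 5.52% and 3.39%, and E861A had 0.638%, 1.78% and 2.59%. All 3 WT levels thus lay above all 3 E861A levels. How many of all tested brain sites were separated in this way was not counted. At intron +1811 the genotypes were separated in the other direction, with 0.0497%, 0.801% and 0.0328% in WT and 8.66%, 2.89% and 1.76% in E861A. The remaining 14 intronic positions stayed at or below 5.93% in every brain library.

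The I/M site of Gabra3 was edited in 100%, 25.9% and 90.7% of reads in WT brain and in 79.3%, 87.2% and 92.7% in E861A brain. The WT libraries held both the highest and the lowest value, and the E861A libraries lay between them. WT replicate 1 had 515 edited reads of 515 (Wilson 95% interval 99.3% to 100%) and WT replicate 2 had 71 of 274 (21.1% to 31.4%). The number of RNA molecules behind these reads was not measured. The means were 72.2% ± 40.4 (SD, n = 3) and 86.4% ± 6.77. None of the other 11 covered Gabra3 positions passed 1.60% in any brain library. Intervals and limits cover counting error only, since PCR reads without molecular identifiers are not independent molecules.

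The Q/R position of Grm4 carried almost no editing. In brain it was edited in 0 of 110 reads and 19 of 528 (3.60%) in WT replicates 2 and 3. In E861A replicates 1 and 2 it was edited in 0 of 241 and 0 of 577 reads, which allow up to 1.24% and 0.520%. Only WT replicate 3 was above 1% here, and no Grm4 position passed 1% in any other tissue read. The 8 other covered Grm4 positions stayed at or below 0.837% in every library.

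**Figure D1:**
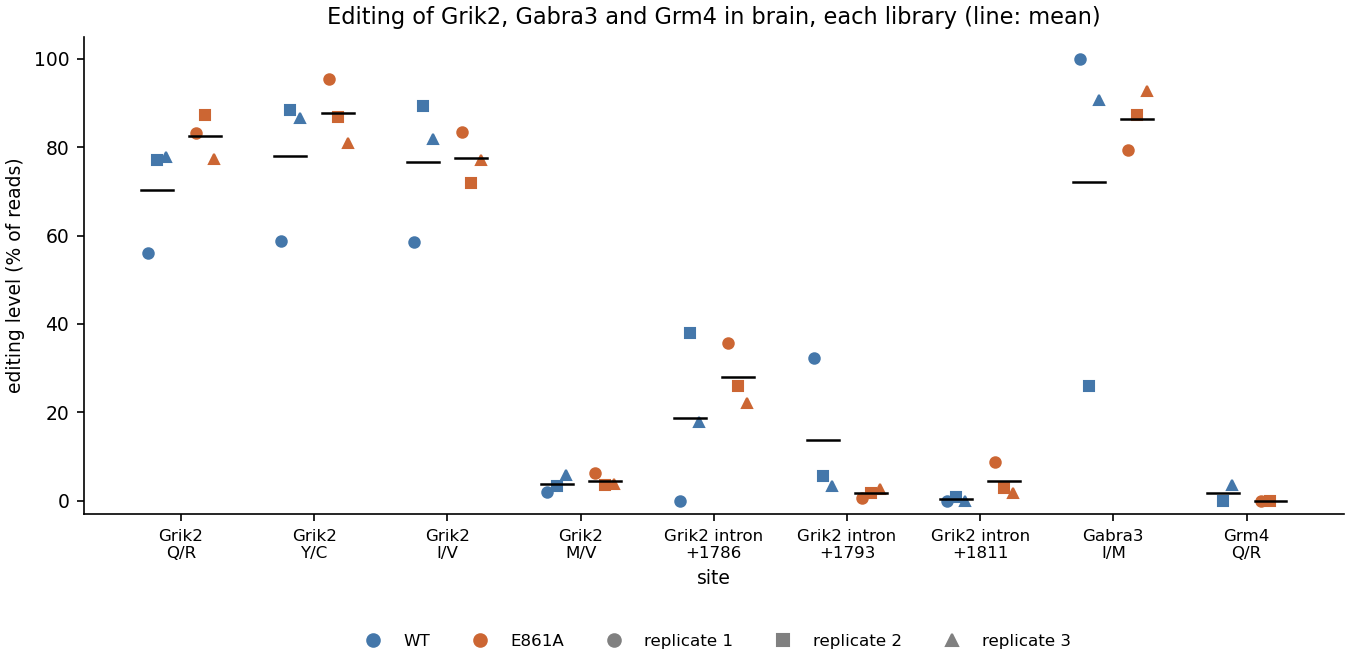
Editing level in percent of reads (vertical axis) at the named Grik2, Gabra3 and Grm4 sites (horizontal axis) in brain, with 1 point per library, a marker shape per replicate, WT beside E861A, and a line at each group mean. The Q/R, Y/C and I/V sites of Grik2 and the I/M site of Gabra3 lie high in both genotypes, with Gabra3 in WT running from 25.9% to 100%.

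The test of ADAR1 catalysis, E861A against WT within a tissue, called none of these sites. A site entered it with more than 100 reads in 2 or 3 replicates of each genotype and a pooled level over 1% in WT or E861A. Differences are on the scale log2((level + 0.01)/(1 - level + 0.01)), positive where E861A was higher. There were 20 tests in 5 tissues, with 0 calls by limma at an adjusted p of 0.05, 1 at an unadjusted p under 0.05, and 0 calls and 1 unadjusted by a quasi-binomial model of the reads. In brain, 15 member sites were tested and 0 called, where 0.0% of all 808 tested sites were called. The share called of all sites was 0.0% in heart (1 member tested), 17.1% in kidney (2 members), 9.75% in liver (1 member) and 0.0% in thymus (1 member). In kidney and liver all sites called were lower in E861A, 91 and 66 of them.

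For the exonic Grik2 sites the brain difference was 0.94 (SE 0.61, limma adjusted p = 0.70) at Q/R and 0.94 (SE 0.88, adjusted p = 0.70) at Y/C. At I/V it was -0.09 (SE 0.75, adjusted p = 0.98), and at M/V 0.31 (SE 0.72, adjusted p = 0.86). In percentage points of the mean level these were 12.2 higher in E861A at Q/R, 9.78 at Y/C and 0.863 at I/V. Leaving out each library in turn, the Q/R difference ranged from 0.48 to 1.19 and the Y/C difference from 0.20 to 1.38. Intron +1786 differed by 1.81 (SE 1.54, adjusted p = 0.70), and by 0.058 without WT replicate 1 and 3.04 without WT replicate 2. The sites whose genotypes did not overlap gave -2.16 (SE 1.08, adjusted p = 0.70) at intron +1793 and 1.97 (SE 0.77, adjusted p = 0.65) at intron +1811, the latter with the single unadjusted p under 0.05 (0.041). The share of all tested brain sites without such overlap was not counted, so the separation is only described. Leaving out each library in turn, the difference at intron +1793 ranged from -2.83 to -1.12, the latter without WT replicate 1. A fit that shares its estimate of the spread over all 48 libraries called intron +1793 and intron +1811 (limma adjusted p = 0.00364 and 1.17e-05). These calls therefore turn on how the spread between replicates is estimated. Intron +1811 entered the test only through its E861A level, so its direction was fixed by the filter and its p-values support nothing. The Gabra3 I/M site gave -0.09 (SE 1.96, adjusted p = 0.99), with a SE too wide to read a direction, and the mean level went the other way, 14.2 percentage points higher in E861A. For Grm4 the difference was -1.13 (SE 0.95, adjusted p = 0.70) over 2 libraries a group. The Grm4 site entered the test only through WT replicate 3, so its direction was fixed by the filter and its p-value supports nothing.

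Other sites of the same kind were set beside these. Over all 808 brain sites the median difference was -0.12 on the log2 scale, and over the 15 member sites it was 0.28. Other glutamate receptor genes gave 10 sites in 4 genes, of which 0 were called and 1 had an unadjusted p under 0.05, with a median of -0.12. Of the Adarb1 transcript itself 10 sites were tested and 0 called, with a median of -0.29. Other genes with recoding sites gave 27 sites in 13 genes, of which 0 were called and 3 had an unadjusted p under 0.05. The Q/R site of Grik1, which encodes the related kainate subunit GluK1, averaged 59.5% in WT and 54.3% in E861A (limma adjusted p = 0.823). The site with the largest fall in mean level among these lists, an isoleucine-to-valine site of the serotonin receptor Htr2c, averaged 83.2% and 9.97%, and it too missed the threshold (-6.01, adjusted p = 0.130).

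**Figure D2:**
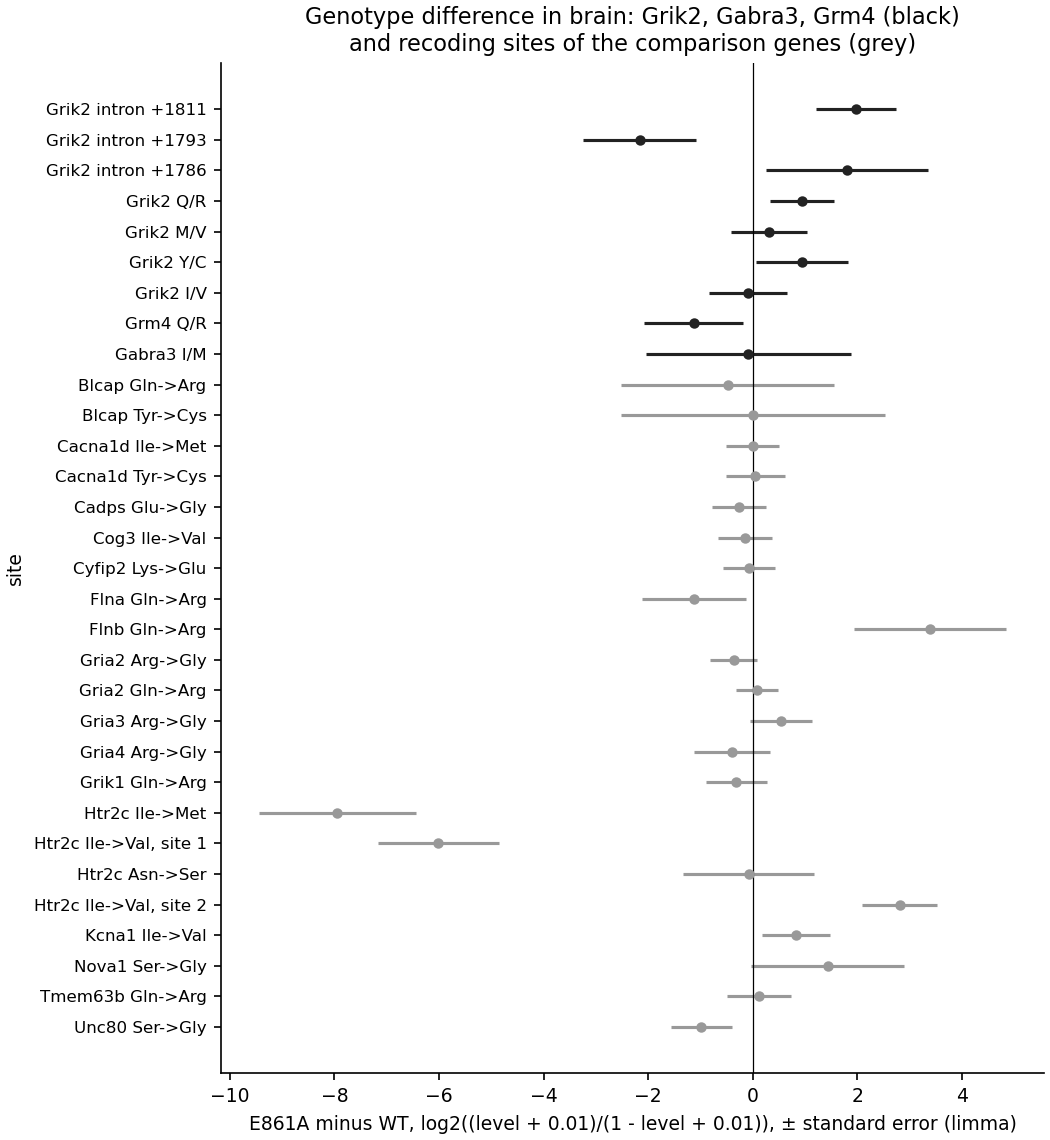
Difference between E861A and WT in brain on the log2 scale (horizontal axis, bars are the SE) for 9 named Grik2, Gabra3 and Grm4 sites (black) and 22 recoding sites of the comparison genes (grey). Of the grey sites, 16 lie within 1 of zero, as do the exonic Grik2 sites and Gabra3.

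Outside the brain the genotypes could be compared at few of these sites. In kidney the Gabra3 I/M site was edited in 15.7%, 23.8% and 15.9% of reads in WT and in 6.81% and 11.4% in the 2 E861A libraries with enough reads. Both E861A values lay below the WT range, and the difference of -1.12 (SE 0.56) gave a limma adjusted p = 0.213. By limma the median difference over all 532 kidney sites was -1.26. The criterion of the study's methods, an unadjusted one-way F test with a minimum difference, called this site. It was 1 of 95 among those 532 sites that this criterion called, all lower in E861A. In liver the site stood at 6.47%, 20.1% and 22.0% in WT and at 13.8%, 15.1% and 26.0% in E861A, with overlapping groups and a difference of 0.31 (SE 0.84, adjusted p = 0.818). The 3 tests of intronic Grik2 positions in these tissues rested on 1 or 2 libraries each. At 48962349 in kidney, E861A replicate 3 alone had 16.8% (98 of 584 reads, adjusted p = 0.397 for the genotype). At 48962190, E861A replicates 1 and 3 of heart had 1.20% and 2.52% (adjusted p = 0.566) and WT replicate 2 of thymus had 5.37% (adjusted p = 0.461).

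Between tissues, Gabra3 I/M was more edited in E861A brain than in E861A kidney, liver and small intestine, where it could be tested. Within E861A, 39 tests of member sites in 6 tissues gave 12 calls, all higher in brain, and 13 unadjusted p under 0.05. Intron +1786 and intron +1811, which gave 9 of these calls, were on average at or below 0.612% in every other E861A tissue and entered the tests only through their brain level. Their direction was therefore fixed by the filter, and the count of calls supports nothing about them. Gabra3 I/M, which gave the other 3, passed the filter in the other tissues too. Called were 2 of 8 members against heart (27.5% of all sites), 3 of 8 against kidney (26.2%), 1 of 1 against liver (20.2%), 2 of 8 against small intestine (33.6%), 2 of 7 against spleen (34.3%) and 2 of 7 against thymus (33.4%). Apart from liver, with its single site, these shares were of the order of the background or below it, which is no result about the members as a group. Intron +1786 averaged 28.0% ± 7.03 (SD, n = 3) in E861A brain and was at or below 0.252% in every other library outside the brain but 1, E861A replicate 1 of heart with 1.84% (27 of 1471 reads). Its mean level differed from brain by -27.34 to -27.96 percentage points in heart, kidney, small intestine, spleen and thymus of E861A, given as a description. Limma called it against all 5 tissues, a call lost against small intestine with untransformed levels (adjusted p = 0.0537), and called intron +1811 against heart, kidney, spleen and thymus. The calls of intron +1811 were all lost with an offset of 0.05, with untransformed levels, with the replicate number as a block and without any 1 library of the other tissue, and those against heart and kidney also without E861A brain replicate 2.

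Gabra3 I/M in E861A averaged 86.4% in brain, 18.3% ± 6.69 (n = 3) in liver and 9.09% ± 3.22 (n = 2) in kidney. In small intestine it was 2.44% and 0% (0 of 1993 reads). Against brain the mean level differed by -68.1 percentage points in liver (log2 difference -4.84, SE 0.68, limma adjusted p = 0.00680), by -77.3 in kidney (-5.92, SE 0.68, adjusted p = 0.00531) and by -85.2 in small intestine (-8.44, SE 0.97, adjusted p = 0.00254). The liver and kidney libraries of E861A did not overlap in range, and the difference between these tissues was not tested. Gabra3 I/M stayed past the threshold in every fit that left out a single E861A library and could still test it. Without either of the 2 kidney or 2 small intestine libraries that read it, it could no longer be tested there. The R/G site of Gria3, a recoding site of an AMPA receptor subunit, differed by -63.2 to -66.8 percentage points from brain in heart, kidney, small intestine, spleen and thymus of E861A, and by -2.70 in liver.

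**Figure D3:**
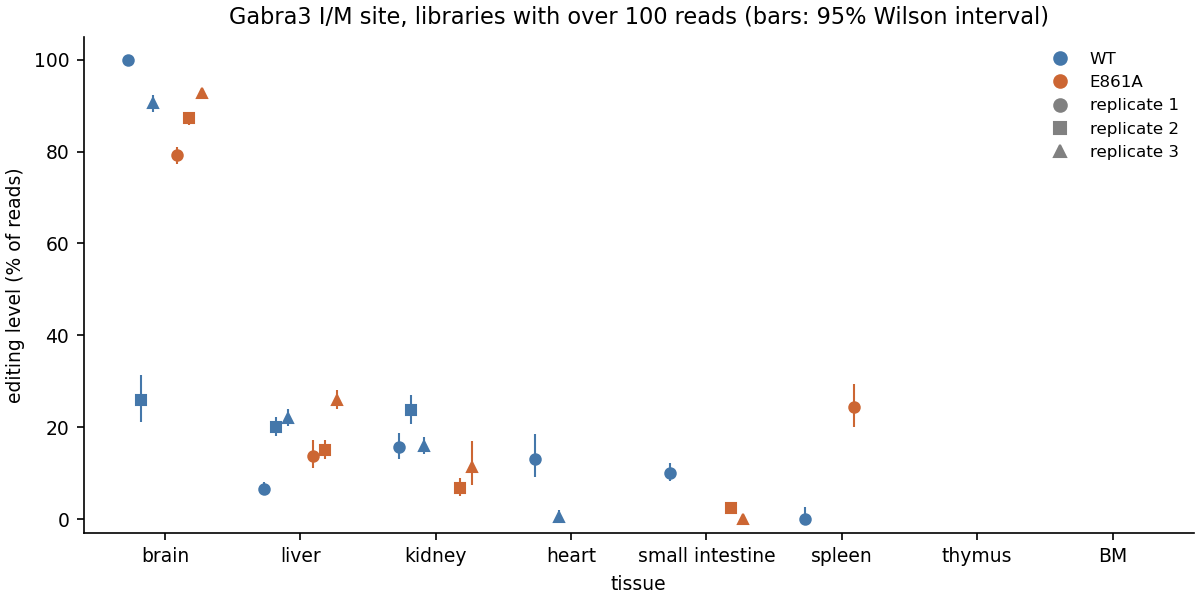
Editing level of Gabra3 I/M in percent of reads (vertical axis) by tissue (horizontal axis), 1 point per library with more than 100 reads and its 95% Wilson interval, WT and E861A apart. Brain levels run from 25.9% to 100% and those of other tissues from 0% to 26.0%, so that only WT brain replicate 2 lies within the range of the other tissues.

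Within WT the same comparisons gave no call, beside the wide spread of the WT brain libraries. In 29 tests in 7 tissues limma called 0, with 7 at an unadjusted p under 0.05. These included Gabra3 I/M against heart, kidney and liver, and intron +1793 against heart and kidney. Over all sites, the share called as higher in brain was 7.01% against BM (3 members tested), 5.03% against heart (4), 11.3% against kidney (4), 1.11% against liver (1), 6.83% against small intestine (8), 18.9% against spleen (4) and 12.4% against thymus (5). Gabra3 I/M differed from brain by -65.5 percentage points in heart (adjusted p = 0.165), by -53.8 in kidney (adjusted p = 0.181) and by -56.0 in liver (adjusted p = 0.226). Intron +1786 differed by -18.5 to -18.6 points, with adjusted p between 0.195 and 0.343. Without WT brain replicate 1, in which that site was at 0%, limma called 1 member site in each of BM, heart, kidney, small intestine and thymus and 2 in spleen, intron +1786 each time and in spleen also intron +1793 (-2.01, adjusted p = 0.0346). In WT too intron +1786 entered the tests only through its brain level. So did intron +1793 against BM, heart, kidney, spleen and thymus, where it averaged 0.446%, 0.561%, 0.0707%, 0.386% and 0.783%. This fixed the direction, so these calls and the unadjusted p-values of intron +1793 support nothing about either site. Without WT brain replicate 2, Gabra3 I/M passed the threshold against kidney.

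**Figure D4:**
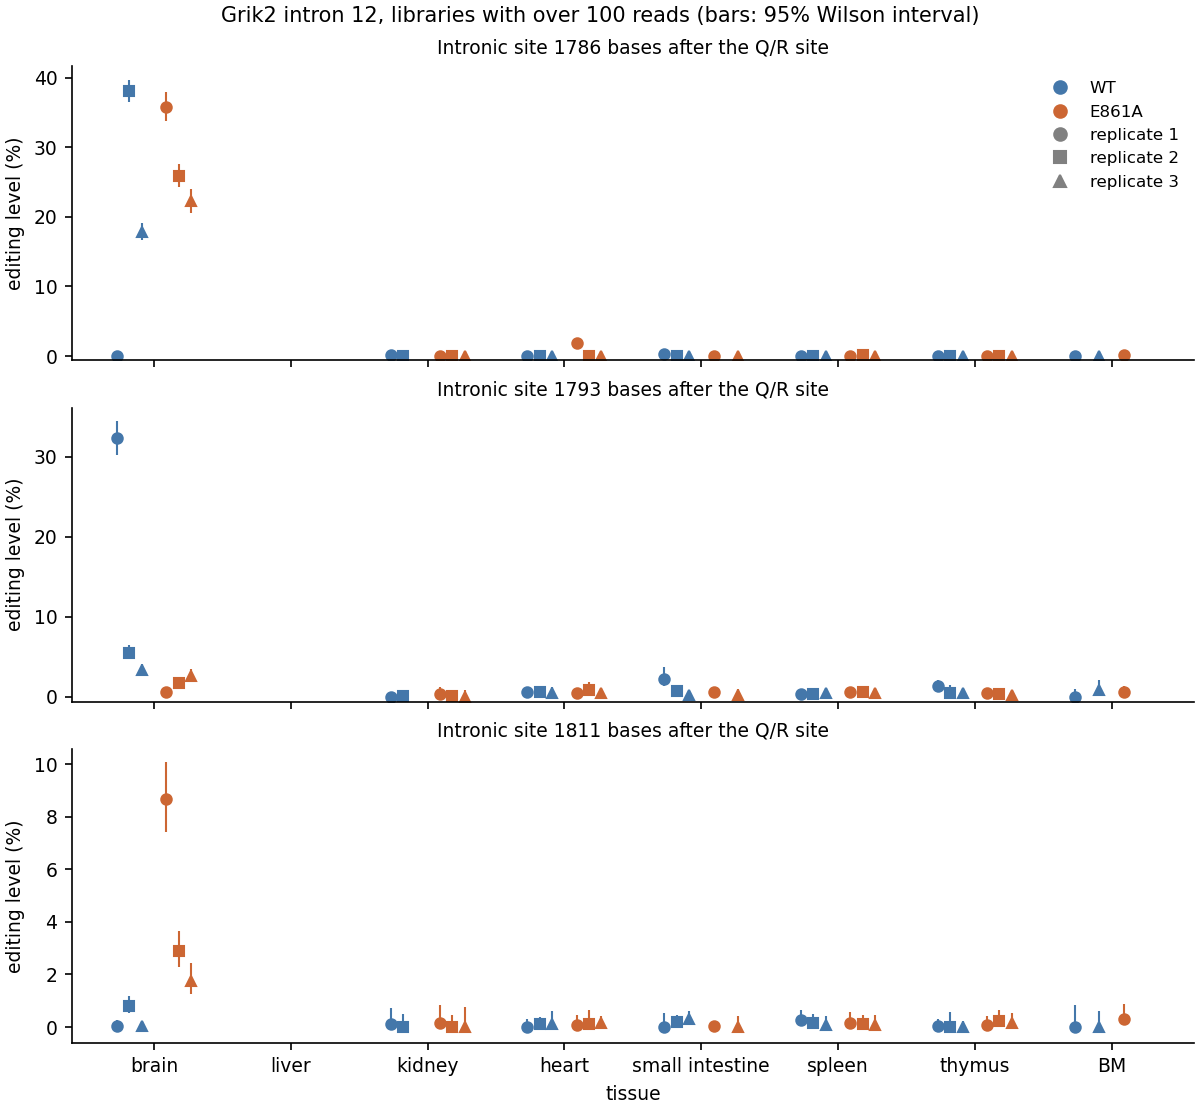
Editing level in percent of reads (vertical axis) at 3 intronic Grik2 sites by tissue (horizontal axis), 1 point per library with more than 100 reads and its 95% Wilson interval. Intron +1786 reaches 38.0% in brain and is at or below 1.84% in every library of the other tissues read.

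Whether the genotype difference in brain departs from that in another tissue was tested as an interaction over 12 libraries. Of 41 tests 0 were called by limma, and 5 had an unadjusted p under 0.05, all at intron +1811 (adjusted p from 0.325 to 0.729). That site entered these tests only through its E861A brain level, which fixed the direction. The 5 tests also share the same brain libraries, so their p-values support nothing about the site. The quasi-binomial model was not fitted to the interaction or to the tissue contrasts. The share of all sites called was 0.231% with heart, 1.76% with kidney, 1.41% with liver, 0.492% with small intestine, 1.77% with spleen and 0.454% with thymus. The Gabra3 I/M site gave -1.03 with kidney (adjusted p = 0.865) and 0.40 with liver (adjusted p = 0.932).

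The exonic Grik2 sites outside the brain were read in few libraries and gave extreme values. In WT replicate 3 of BM, Q/R, Y/C and I/V were edited in 499 of 499, 507 of 507 and 518 of 518 reads, all 100%. In WT replicate 2 of small intestine they stood at 100% (1239 of 1239 reads), 100% (1326 of 1326) and 99.9% (1299 of 1300). In WT replicate 1 of small intestine they stood at 6.23%, 0.787% and 0.256%. Libraries of the same group therefore lay at both ends of the range, and the difference from brain at Q/R within WT was 0.20 (adjusted p = 0.975). The low libraries also included E861A replicate 2 of spleen, with 7.86% at Q/R (18 of 229 reads) and 0% at Y/C and I/V, and WT replicate 1 of heart, with 0.843% at Q/R. WT replicate 3 of kidney had 0.262% at Q/R. The nearby M/V position, read in the same 100% libraries, was at 0.206% in BM and at or below 0.0977% in small intestine. How many RNA molecules lie behind these reads was not measured.

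**Figure D5:**
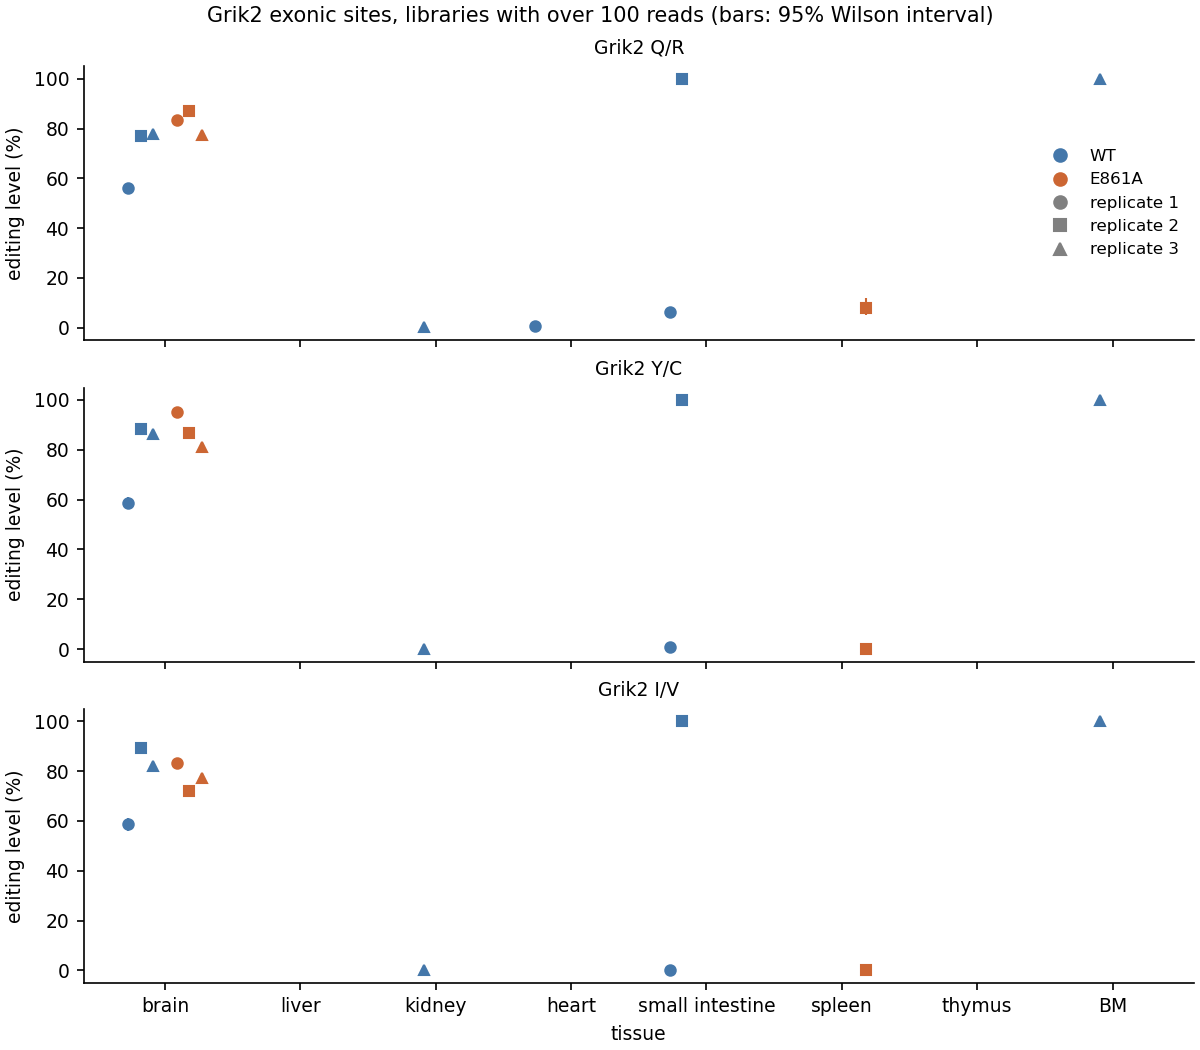
Editing level in percent of reads (vertical axis) at the Q/R, Y/C and I/V sites of Grik2 by tissue (horizontal axis), 1 point per library with more than 100 reads and its 95% Wilson interval. Brain libraries lie between 56.1% and 95.3% at Q/R, Y/C and I/V, while single libraries of BM and small intestine lie at or near 100% and the rest at or below 7.86%.

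Within each brain library the Q/R, Y/C and I/V sites of Grik2 were compared in pairs over the libraries of both genotypes. Y/C was above Q/R by 6.34 ± 5.10 percentage points (SD, n = 6) and higher in 5 of 6 libraries (exact two-sided sign-flip permutation p = 0.0625, adjusted 0.141 over 3 pairs). Y/C was above its neighbour I/V by 5.79 ± 6.35 points, again in 5 of 6 libraries (exact p = 0.0938, adjusted 0.141). I/V minus Q/R averaged 0.546 ± 8.97 points (exact p = 0.844). By genotype, this last pair gave 2.43, 12.1 and 4.12 points in WT and 0.127, -15.3 and -0.204 in E861A. For Y/C minus I/V the values were 0.114, -0.735 and 4.62 points in WT and 11.9, 15.0 and 3.89 in E861A, and these differences between genotypes were not tested. None of the 3 mean differences passed the threshold, and the smallest p that 6 libraries allow is 0.03125. By the root mean square difference over the 6 brain libraries, the site of another gene most like each of the exonic Grik2 sites was the lysine-to-glutamate site of Cyfip2, at 9.13 percentage points from Q/R, 10.4 from Y/C and 8.66 from I/V. Next for Q/R and I/V were a 3′ UTR site of Tox4 (10.4 and 10.6 points) and then an arginine-to-glycine site of Gria2 (12.1 and 10.8). Next for Y/C were an arginine-to-glycine site of Gria4 (13.8 points) and the Tox4 site (15.8). The site most like Gabra3 I/M was an intronic site of Adarb1, at 13.1 points.

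Low editing was found at further positions of the Grik2 brain transcript. In all, 16 of its 39 covered positions passed 1% in at least 1 brain library and 5 passed 10%. Beyond those described, a silent glycine position 17 bases upstream of the Q/R site reached 2.24% and 5.23% in WT replicates 1 and 2 and 3.49% in E861A replicate 1. An asparagine-to-aspartate position 34 bases upstream reached 3.17% in WT replicate 2 alone, and an isoleucine-to-valine position at 48992607 reached 1.40% in WT replicate 3. In the intron, 48962356 reached 5.93% in WT replicate 2 and 2.56% and 2.11% in E861A replicates 2 and 3. The positions 48962349, 48962351 and 48962225 reached at most 3.28%, 2.68% and 1.90%, each highest in E861A replicate 3. In no case did all 3 libraries of a genotype pass 1% at such a position.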

How the data were processed

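For every library the authors deposited 1 table that gives, for each listed position, its coverage and its edited reads as counts and their quotient as a fraction, without normalization. The submitters' processing notes name STAR, SAMtools and mm9, and their settings are not given in the sources used here. Levels were recomputed from the 2 counts, and none of them differed from the deposited fraction beyond its rounding. Levels with 100 or fewer reads were treated as missing, so a fit drops that library for that site. At this coverage the spread between replicates sets the precision, and each replicate had the same weight.

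E861A was compared with WT in each tissue, and brain with each other tissue within a genotype, by limma 3.58.1 under R 4.3.3, with lmFit and a trended eBayes. The values fitted were log2((level + 0.01)/(1 - level + 0.01)). P-values were adjusted by Benjamini-Hochberg over every edited site of the comparison, with a threshold of 0.05. The genotype effect in brain was compared with that in other tissues by an interaction over 12 libraries. Edited means a pooled level over 0.01 in either group. Pairs of exonic Grik2 sites were compared by an exact sign-flip test.

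Every site of the 3 genes with a pooled level over 0.01 is named, and those with a mean over 10% in either genotype or past the threshold get the value of every library. Genes and comparison lists were chosen with earlier results of these data known. The comparison lists were glutamate receptors, GABA receptors (0 sites tested in brain), other genes with recoding sites, and deaminases, of which only Adarb1 had tested sites. Sequences and gene models are from NCBIM37 and GENCODE vM1. All 7535 positions checked against the genome carry A on their strand. Duplexes were predicted with ViennaRNA 2.7.2. Tables and figures used Python 3.11.15, pandas 2.3.3, numpy 2.4.6, scipy 1.17.1 and matplotlib 3.10.9. Only the limma genotype test in brain was tried on simulated libraries, and the outcome is not given here. The other tests were not simulated. The alternatives were other coverage minimums, offsets and edited limits, coverage in all 3 replicates, the untransformed level, eBayes without a trend, the replicate number as a block, pooled reads, a quasi-binomial model, the study's criterion, a fit over all 48 libraries and each library left out in turn. The authors' joined matrices of the same libraries were not used.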

Additional observations from a re-analysis of the deposited data

Results flagged for a closer look

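Among the values that no comparison used, because too few replicates were read or the pooled level stayed at or under 1%, 8 had a Wilson 95% interval wholly above 1%. Further values just over 1%, with intervals that reach below it, are not listed here. In WT replicate 3 of BM, the only BM library with more than 100 reads at the exonic Grik2 sites, the Q/R, Y/C and I/V sites stood at 100%, 100% and 100%. In E861A replicate 1 of BM the intronic Grik2 position 48962188 had 2.35% (27 of 1147 reads). In E861A replicate 2 of spleen the Grik2 Q/R site had 7.86% (18 of 229 reads). The Gabra3 I/M site had 24.4% in E861A replicate 1 of spleen (80 of 328 reads), where WT replicate 1 had none, and 10.1% in WT replicate 1 of small intestine (96 of 950 reads). In brain, the Grik2 position 48992607 had 1.40% in WT replicate 3. The other WT brain libraries had 0.0636% and 0.0796% there and E861A at most 0.250%, so the replicates did not repeat this value. Each of the other values rests on the only library of its group with more than 100 reads and has no replicate check.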

How the results depend on the processing

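No setting for a genotype or interaction comparison called a member site except the fit over all 48 libraries, with 2 in brain, and the study's criterion, with 1 in kidney, each against 0. The study's criterion called 95 of all 532 kidney sites, and the share of all sites for the fit over all 48 libraries is not given here. Within WT, where 0 sites were called against any tissue, coverage over 50 reads gave 3 in kidney, coverage over 500 gave 1 in kidney and 1 in liver, and an offset of 0.001 gave 1 in spleen, intron +1793. Within E861A, the 2 sites called against heart, spleen and thymus became 1 in each with an offset of 0.05 and with untransformed levels, and the 2 against small intestine became 1 with untransformed levels, with intron +1786 lost. Against kidney intron +1811 was lost in these 2 settings and with the replicate block (adjusted p = 0.135, 0.212 and 0.109). Same-numbered replicates did not pair, with correlations of their deviations from -0.309 to 0.238. With the replicate block, 1 site was called in E861A against heart, 1 against spleen and 1 against thymus in place of 2, the Grm4 interaction with spleen turned to -0.18, and no other count of calls moved by over 1.5 times.

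Leaving out each library in turn gave 0 to 1 calls within WT against BM, heart, kidney, small intestine and thymus and 0 to 2 against spleen. These came from leaving out WT brain replicate 1, and in kidney also replicate 2. Within E861A the counts were 1 to 3 against heart, 1 to 6 against kidney, 1 to 5 against small intestine, 1 to 6 against spleen and 1 to 4 against thymus. The highest came without E861A brain replicate 1, and those of 1 without a library of the other tissue or, for heart, without E861A brain replicate 2.

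Directions that turned were all of differences that missed the threshold. The brain genotype difference of Gabra3 became 0.44 with an offset of 0.05, 0.42 in the quasi-binomial model and 14.2 percentage points with untransformed levels or the study's criterion, and it ranged from -2.21 to 1.86 with a library left out. That of I/V became 0.863 points and ranged from -0.77 to 0.46, and that of M/V ranged from -0.0018 to 0.64. In liver the Gabra3 genotype difference ranged from -0.29 to 0.65. The Q/R difference between WT small intestine and brain became -0.54 with an offset of 0.05 and -17.3 points untransformed, and ranged from -0.27 to 0.44. The Gabra3 interaction with liver became -0.20 and -12.1 points in the same settings and ranged from -1.54 to 2.53, and that with kidney ranged from -2.97 to 1.10. The intron +1786 interactions ranged from -2.57 to 0.42 with heart and from -2.93 to 0.052 with spleen. The difference of I/V from Q/R within a library ranged from -1.77 to 3.72 points. The cause was not tested.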
